A study of Mus musculus with 6 samples.

Results

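The genes of osteocrin and natriuretic peptide signalling were followed in cortical cells of mouse embryos in which the acetyltransferase-family gene Nat14 had been knocked down. The 9 genes were the secreted peptide genes Ostn, Nppa, Nppb and Nppc, the receptor genes Npr1, Npr2 and Npr3, and the cGMP kinase genes Prkg1 and Prkg2. Each was found by its symbol, and 9 of 9 had a row among the 21937 gene symbols measured. The set was chosen by pathway role around Ostn, which had been selected on its fold change and adjusted p in this same comparison. Its values are therefore given as a description.

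The shNat14 group received a plasmid for a short hairpin RNA against Nat14 (3 libraries), and the NTC group received one for a control hairpin (3 libraries). In both groups the plasmid was delivered into the lateral ventricle by in utero electroporation at embryonic day 14.5, cortex was dissected and dissociated at embryonic day 18.5, and live cells positive for green fluorescent protein (GFP) were sorted. The sort was on GFP alone, so the cells are a mixture of whatever the electroporated progenitors had become, together with any other cell that passed the gate. Mouse strain, the number of embryos per library and whether embryos were pooled were not found in the sources used here. Embryo sex is not among the sample labels used here, so its balance between the groups is unknown. With the embryos behind each library unknown, a p-value here reflects how far the libraries of a group differ, whether for biological or technical reasons. The deposited table is the authors' own comparison with no value per library, so that no SD, no range over libraries and no depth per library can be given. Fold changes are shNat14 over NTC, a direction read from the sign of Nat14, at -3.31 on the log2 scale by the authors' deposited table (adjusted p = 1.2e-08).

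Natriuretic peptides are secreted hormones best known from heart, vessels and growing bone. They bind receptors that are themselves guanylate cyclases, Npr1 for the atrial and brain-type peptides and Npr2 for the C-type peptide, and the cGMP made inside the cell acts on kinases, ion channels and phosphodiesterases. Npr3 lacks the cyclase domain and removes peptide by internalisation. Osteocrin, also called musclin, is a secreted peptide of bone and muscle that binds Npr3 and so can spare natriuretic peptides from clearance. In primates, but not in mice, osteocrin has been described as a gene that neuronal activity induces in cortex through MEF2 factors. In mouse, Nppc, Npr2 and Prkg1 together direct the branching of sensory axons in the spinal cord.

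The coding sequences of Ostn, Nppb and Nppc show what osteocrin shares with these natriuretic peptides and what it lacks. Below are the last 40 codons before the stop codon of each, from the GENCODE M21 transcripts of GRCm38, 5′ to 3′. Capitals mark an ungapped stretch of 9 codons, a length chosen after the sequences were seen, over which Ostn encodes the most residues alike with both Nppb and Nppc.
Ostn: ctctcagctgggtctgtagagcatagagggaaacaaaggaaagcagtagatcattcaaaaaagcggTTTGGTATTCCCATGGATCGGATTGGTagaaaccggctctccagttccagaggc
Nppb: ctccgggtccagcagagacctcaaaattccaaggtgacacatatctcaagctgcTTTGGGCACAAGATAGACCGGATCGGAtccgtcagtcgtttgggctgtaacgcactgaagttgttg
Nppc: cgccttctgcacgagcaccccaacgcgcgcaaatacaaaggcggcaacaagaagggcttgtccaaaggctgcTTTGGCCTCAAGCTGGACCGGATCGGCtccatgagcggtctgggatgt

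In this stretch, codons 113 to 121 of the 130 codons of Ostn, 6 of 9 encoded residues were the same in Nppb and in Nppc. At the level of bases, 16 of 27 matched in Nppb and 17 of 27 in Nppc. In both natriuretic peptide genes the codon just before the stretch is a cysteine codon, tgc, and a second cysteine codon follows with 15 codons between the pair, which in the mature peptides are joined into a ring. Ostn has cgg at that place and 0 cysteine codons in its whole coding sequence. Over exact runs of 50 bases the Ostn transcript had no match in the other peptide genes. Exact runs of that length cannot show how far a partial likeness extends.

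Ostn was the member that stood apart. Its log2 fold change by the authors' deposited table was 9.04, with p = 9.53e-12 and an adjusted p of 4.18e-08. This was the largest fold change in either direction among all 21937 rows, the next largest rise being 7.97 and the largest fall -8.45, and 4 rows of the authors' deposited table had a smaller p. Of the 9 members, 1 was called at the authors' adjusted p under 0.05, and it was called higher. Over all rows of the authors' deposited table, a share of 0.155% was called, 0.0547% higher and 0.1% lower, and since Ostn entered the set for being called, nothing is read from that count. In sorted cells, a larger share of cells with Ostn RNA and more Ostn RNA per cell cannot be told apart.

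**Figure D1:**
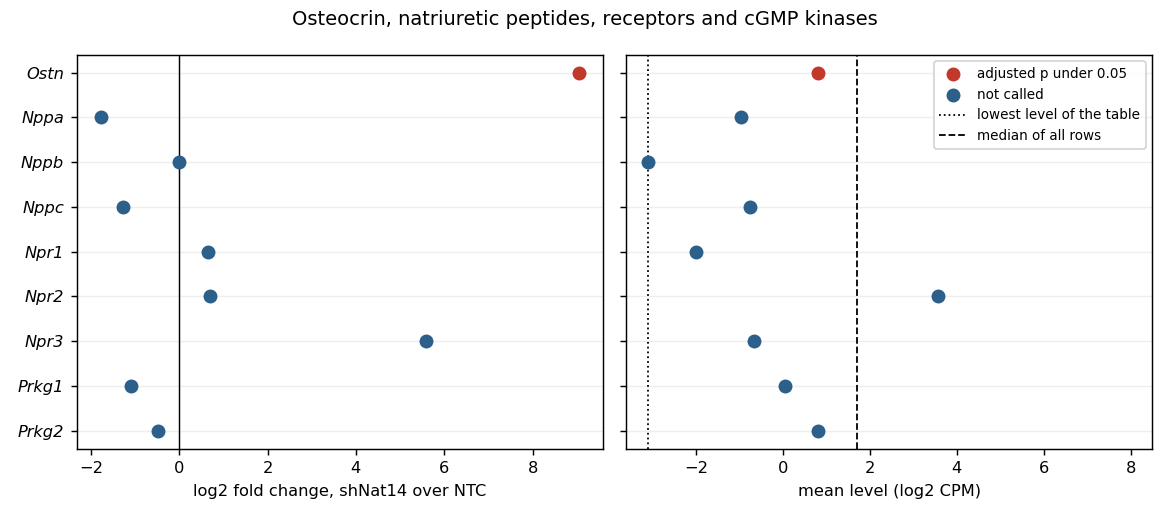
Log2 fold change of shNat14 over NTC (left) and mean level as log2 CPM, counts scaled to library size (right), for each of the 9 genes, from the authors' deposited table. Points are single values with no error, red where the adjusted p is under 0.05. Ostn lies at 9.04 and Npr3 at 5.58, and the other genes between -1.78 and 0.70.

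The level behind this fold change was low. Mean level over the libraries, in counts scaled to library size (CPM), was a log2 CPM of 0.80 by the authors' deposited table, which is 1.74 CPM, against a median of 3.27 CPM over all rows and a lowest value of 0.117 CPM that is shared by 4537 rows. Only 45.2% of rows had a lower mean level than Ostn. Prkg2 had nearly the same mean level by the authors' deposited table, 1.74 CPM, with a log2 fold change of -0.48. Of the 541 other rows within 0.25 log2 units of the mean level of Ostn, 3 were called, and the median absolute log2 fold change was 0.53.

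Across the authors' deposited table, the largest absolute fold changes grew with level up to that of Ostn and were smaller above it. The largest absolute log2 fold change was 6.94 among rows with a log2 CPM of -2 to -1, 8.15 from -1 to 0, and 9.04, that of Ostn itself, from 0 to 1. It was 4.43 from 1 to 2 and 7.41 from 2 to 3 by the authors' deposited table. Ostn thus sits at the top end of a curved edge of rows in the plot of fold change against level. The size of a fold change this far from 0 at so low a level depends on how the authors' fit treats counts at or near 0, which the sources used here do not give. A log2 fold change of 9.04 is therefore no bound on the difference, and whether NTC libraries held any Ostn reads was not analysed here.

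**Figure D2:**
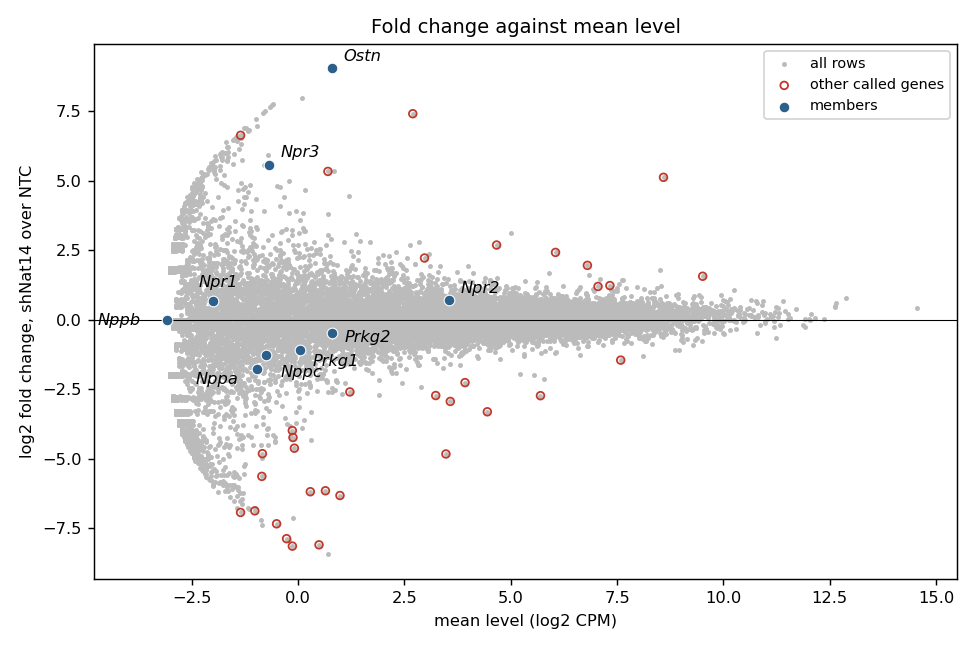
Log2 fold change of shNat14 over NTC against mean level in log2 CPM for all 21937 rows of the authors' deposited table (grey), the other called genes (open red circles) and the 9 members (blue, named). Ostn is the highest point, at a log2 CPM of 0.80, and Npr3 lies inside the curved upper edge, while the other members lie in the body of the cloud.

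The annotation touches the count of Ostn in one respect. An antisense transcript, Gm32312, overlaps exons of Ostn by 184 of their 1423 bases on the opposite strand in GENCODE M21, and 9.97% of the 50-base runs of the Ostn transcript occur in it. It is the sole gene in which such runs were found. The sources used here do not say whether counting used strand, so reads of Ostn and of this partner cannot be told apart in the overlap.

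The natriuretic peptide genes themselves were low and were not called. Nppa, the gene of the atrial peptide, had a log2 fold change of -1.78 by the authors' deposited table at a mean of 0.514 CPM (p = 0.106, adjusted p = 1). Nppc, the gene of the C-type peptide and ligand of Npr2, stood at -1.27 at 0.593 CPM by the authors' deposited table (p = 0.188, adjusted p = 1). Both values are negative where that of Ostn is positive. Nppb, the gene of the brain-type peptide, sat at the lowest mean level with a fold change of 0 by the authors' deposited table, values it shares with 4536 other rows. Exons of Nppa are overlapped by an antisense transcript, Gm13054, over 532 of their 865 bases in GENCODE M21, whereas Nppb and Nppc shared 0 of their 50-base runs with other genes.

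Among the receptors, Npr3 had the second largest fold change of the set. Npr3, the clearance receptor to which osteocrin binds, had a log2 fold change of 5.58 by the authors' deposited table with p = 0.00693, which did not pass after adjustment (adjusted p = 0.557). Only 53 rows of the authors' deposited table had a larger positive fold change. Its mean level was 0.626 CPM, and 10 of the 526 other rows within 0.25 log2 units of that level had a larger absolute fold change. Of all rows of the authors' deposited table, 5.04% had an unadjusted p under 0.05, and among the 9 members Ostn and Npr3 did. Of those 526 rows near the level of Npr3, 48 had an unadjusted p under 0.05. Since Ostn entered the set for its adjusted p, nothing is read from the count among the members.

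The cyclase receptors had small positive fold changes that were not called. Npr2, the receptor of the C-type peptide, was the best measured member, at 11.8 CPM, and the single one above the median level. Its log2 fold change was 0.70 by the authors' deposited table (p = 0.0925, adjusted p = 1). Of the 867 other rows within 0.25 log2 units of its level, 104 had a larger absolute fold change. Npr1, the receptor of the atrial and brain-type peptides, was close to the lowest level at 0.252 CPM and stood at 0.66 by the authors' deposited table (p = 0.794, adjusted p = 1). Each receptor transcript shares some 50-base runs with an annotated partner on the opposite strand, 7.57% of runs for Npr1, 4.36% for Npr2 and 2.41% for Npr3.

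The cGMP kinases had negative fold changes and were not called. Prkg1, the kinase that in mouse acts downstream of Npr2 in sensory axons, had a log2 fold change of -1.09 at 1.03 CPM by the authors' deposited table (p = 0.299, adjusted p = 1). Prkg2, the membrane-bound kinase known from growing bone, stood at -0.48 by the authors' deposited table (p = 0.642, adjusted p = 1). Over the 8 members above the lowest level, 4 fold changes were positive and 4 negative.

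Levels can be compared between genes only per length. Mean level divided by the length of all annotated exons (GENCODE M21) was highest for Npr2, at 2.52 CPM per kilobase, and next for Ostn, at 1.22 CPM per kilobase. Nppa and Nppc followed at 0.594 and 0.569 CPM per kilobase, then Prkg2 at 0.324, Prkg1 at 0.0947, Npr3 at 0.0667 and Npr1 at 0.0526 CPM per kilobase. Nppb, at the lowest level of 0.117 CPM, was left out. That lowest level was not subtracted before dividing, and it is a larger part of the value for members near it, such as Npr1 at 0.252 CPM. These are means over shNat14 and NTC libraries together, without a spread over libraries, so neighbours in this order, such as Nppa and Nppc, cannot be called different. With log2 fold changes of 9.04 for Ostn and 5.58 for Npr3 by the authors' deposited table, the places of both genes rest mostly on shNat14 libraries, and the order in NTC libraries alone was not analysed here.

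Other genes that make, break down or answer to cGMP were examined in lists of 65 genes in 8 groups. Of these, 0 were called higher, 1 was called lower and 64 were not called, against 0.155% called among all rows, and 2 had an unadjusted p under 0.05. The called gene was Gucy2f, a guanylate cyclase known from photoreceptors, with a log2 fold change of -4.82 at 0.559 CPM by the authors' deposited table (adjusted p = 0.026). Of the 60 pathway genes above the lowest level, 28 had a positive, 29 a negative and 3 a zero fold change, with a median log2 fold change of 0. The median over all 17400 rows above the lowest level was 0.0033 by the authors' deposited table.

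Enzymes that activate or degrade the peptides gave no call and 0 unadjusted p under 0.05. Of 8 such genes, 6 had a negative fold change, with a median log2 fold change of -0.36. The endothelin-converting enzyme Ece1 had the smallest p of the list, with a log2 fold change of -0.72 by the authors' deposited table (p = 0.0731). Ide, the insulin-degrading enzyme, was the most abundant and stood at -0.49 by the authors' deposited table (p = 0.136). Corin, the protease that activates the atrial peptide, was near the lowest level by the authors' deposited table, at a log2 CPM of -2.61 with a log2 fold change of 2.16 (p = 0.393).

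Soluble guanylate cyclase, which makes cGMP in answer to nitric oxide, and the nitric oxide synthases held 0 calls among 7 genes and 0 unadjusted p under 0.05. Its alpha subunit gene Gucy1a1, listed under its older symbol Gucy1a3, had the highest level and the smallest p of the list, standing at -0.80 on the log2 scale and a log2 CPM of 4.83 by the authors' deposited table (p = 0.0576). The other particulate cyclases beside Gucy2f were at or near the lowest level, from a log2 CPM of -3.09 to -1.29 by the authors' deposited table. Guanylate cyclase activating genes were all at a log2 CPM of -2.87 or less by the authors' deposited table, the highest being Guca1a, at a log2 fold change of -3.31 (p = 0.367).

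Genes acting after cGMP held no call either, and 0 of the phosphodiesterases, channels and kinase substrates had an unadjusted p under 0.05. Among 16 genes of cGMP phosphodiesterases and their subunits, which include the inhibitory subunits Pde6g and Pde6h and the prenyl-binding Pde6d, 15 were above the lowest level, 10 of them with a positive fold change and a median of 0.29 on the log2 scale. Pde1b was the most abundant and stood at -0.08 by the authors' deposited table (p = 0.864), and Pde3a had the smallest p, at 1.33 (p = 0.238). The channel list, of 10 genes gated or modulated by cyclic nucleotides, had Hcn3 as its most abundant member, with a log2 fold change of 0.02 by the authors' deposited table (p = 0.970), and the smallest p was that of Cngb1, at 2.46 near the lowest level (p = 0.351). Of 12 cGMP kinase substrates, 6 were positive and 6 negative. Pln, the calcium pump regulator phospholamban, stood at 1.22 with the smallest p of the substrates by the authors' deposited table (p = 0.0878), and the transcription factor gene Gtf2i, the most abundant, at 0.05 (p = 0.864). The inhibitory G protein genes, through which Npr3 can signal, included Gnai1, with a log2 fold change of 0.70 and the smallest p of the list by the authors' deposited table (p = 0.0379, adjusted p = 0.962). Gnai3, the most abundant of them, stood at -0.02 by the authors' deposited table (p = 0.928).

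**Figure D3:**
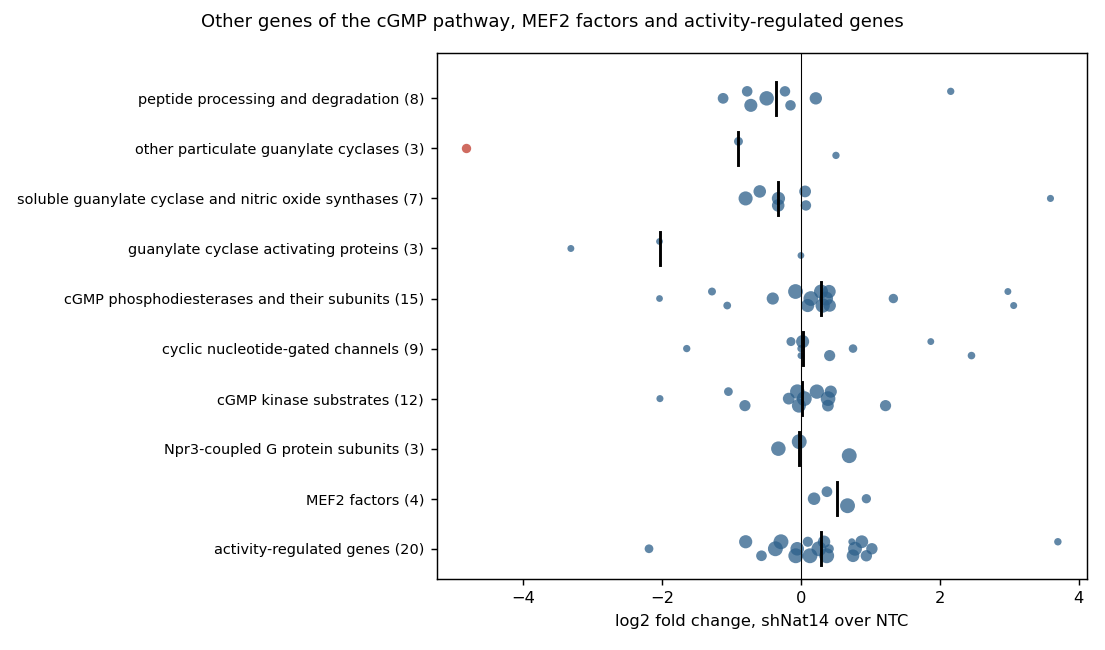
Log2 fold change of shNat14 over NTC for genes of the cGMP pathway that are not members, for MEF2 factors and for activity-regulated genes, from the authors' deposited table. Each point is 1 gene above the lowest level, larger for a higher mean level and red where called, black bars are list medians, and the number of points follows each name. Gucy2f at -4.82 is the single called gene.

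The factors and the neuronal activity programme linked to osteocrin in primates held no called gene. Of the 4 MEF2 genes, 4 had a positive fold change, with a median of 0.52 on the log2 scale. Mef2c, a MEF2 gene of cortical neurons and by far the most abundant, stood at 0.67 at a log2 CPM of 7.97 by the authors' deposited table (p = 0.0275, adjusted p = 0.905). Of 20 activity-regulated genes, 13 had a positive and 7 a negative fold change, with a median of 0.30 on the log2 scale and 0 at an unadjusted p under 0.05. Fos, the most abundant, had a log2 fold change of -0.37 by the authors' deposited table (p = 0.145), and Homer1 had the smallest p, at 0.78 (p = 0.0809).

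The sorted cells carried markers of cortical neurons and their progenitors, and of other cell types as well. Neurod6, a transcription factor of excitatory cortical neurons, had a log2 CPM of 11.30 and Fabp7, of radial glia, 10.97 by the authors' deposited table, at log2 fold changes of 0.24 and -0.11. Of 9 neuron and 9 progenitor markers with a row, 0 were called and 1 had an unadjusted p under 0.05. The most abundant markers of some other lists were also high by the authors' deposited table. Aldoc, listed for astrocytes, had a log2 CPM of 9.03, Ttr, for choroid plexus, 8.52, and Olig1, for the oligodendrocyte lineage, 6.18.

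Markers of tissues in which osteocrin and natriuretic peptides are best known held no called gene. Of 13 skeletal muscle markers 0 were called and 0 had an unadjusted p under 0.05, with a median log2 fold change of -0.12. Myog, a defining factor of muscle, was at the lowest level by the authors' deposited table. Mylpf, a myosin light chain and the most abundant muscle marker, had a log2 CPM of 0.92 and a log2 fold change of 0.92 (p = 0.239) by the authors' deposited table. Of 10 bone markers 0 were called and 1 had an unadjusted p under 0.05, while 5 fold changes were positive and 4 negative, with a median of 0.25 on the log2 scale. The most abundant was Spp1, osteopontin, which other cell types also express, at a log2 fold change of 1.11 and 10.3 CPM by the authors' deposited table (p = 0.188). Alpl, the tissue-nonspecific alkaline phosphatase, had the smallest p and stood at -1.43 by the authors' deposited table (p = 0.0374, adjusted p = 0.962). Ibsp, a sialoprotein of bone, stood at 1.37 (p = 0.109) and Dmp1, of osteocytes, at 4.20 near the lowest level (p = 0.173), whereas the osteoblast factor Sp7 had a log2 CPM of -3.02 and a fold change of 0 by the authors' deposited table. Of 6 cardiac markers 3 were at the lowest level, 0 were called and 0 had an unadjusted p under 0.05.

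Vascular markers mostly had positive fold changes, and so did choroid plexus markers, 7 of 8 of them. Npr3, also positive, is a gene that endothelial and smooth muscle cells can express. Of 8 endothelial and 8 mural markers, 13 had a positive and 3 a negative fold change, with a median log2 fold change of 1.19. An unadjusted p under 0.05 was found for 5 of the 16, all of them higher, and 0 were called. The negative ones were Slco1c1 and the mural markers Pdgfrb, at -0.75, and Cspg4, at -0.18, by the authors' deposited table. Over all rows above the lowest level, 50.3% had a positive fold change. An unadjusted p under 0.05 was found for 1105 of the 17400 rows above the lowest level, and for 48 of the 526 other rows near the level of Npr3. Emcn, an endothelial sialomucin, had a log2 fold change of 4.98 (p = 0.0137) and Myh11, the smooth muscle myosin, 4.80 (p = 0.0117) by the authors' deposited table, both at low levels. The most abundant were Slco1c1, a thyroid hormone carrier, at -0.20 (p = 0.550), and Rgs5, of pericytes, at 1.41 (p = 0.0477), by the authors' deposited table. Cldn5, the tight junction gene of brain endothelium, stood at 0.18 (p = 0.821) by the authors' deposited table, and none of the 16 was at the lowest level. The part of vascular cells in the value of Npr3 was not tested. Of the other lists, astrocyte markers had a median log2 fold change of -0.89 with 1 of 10 called, lower, namely Agt at -6.33 by the authors' deposited table (adjusted p = 6.99e-06), and microglia markers a median of -1.44 with 0 of 10 called. In each of these lists 5 genes, all with negative fold changes, had an unadjusted p under 0.05. The list medians were -0.39 for the oligodendrocyte lineage, -0.83 for meningeal fibroblasts, 0.91 for choroid plexus and -0.60 for interneurons, with 0 called in each. An unadjusted p under 0.05 was found for 1 oligodendrocyte, 2 meningeal, 0 choroid plexus and 4 interneuron markers, all lower, and their part in the values of Ostn and Npr3 was not tested. Xist, the noncoding RNA of the inactive X chromosome, was also called higher by the authors' deposited table, at a log2 fold change of 5.12 (adjusted p = 0.0112), and its part in these values was not tested.

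**Figure D4:**
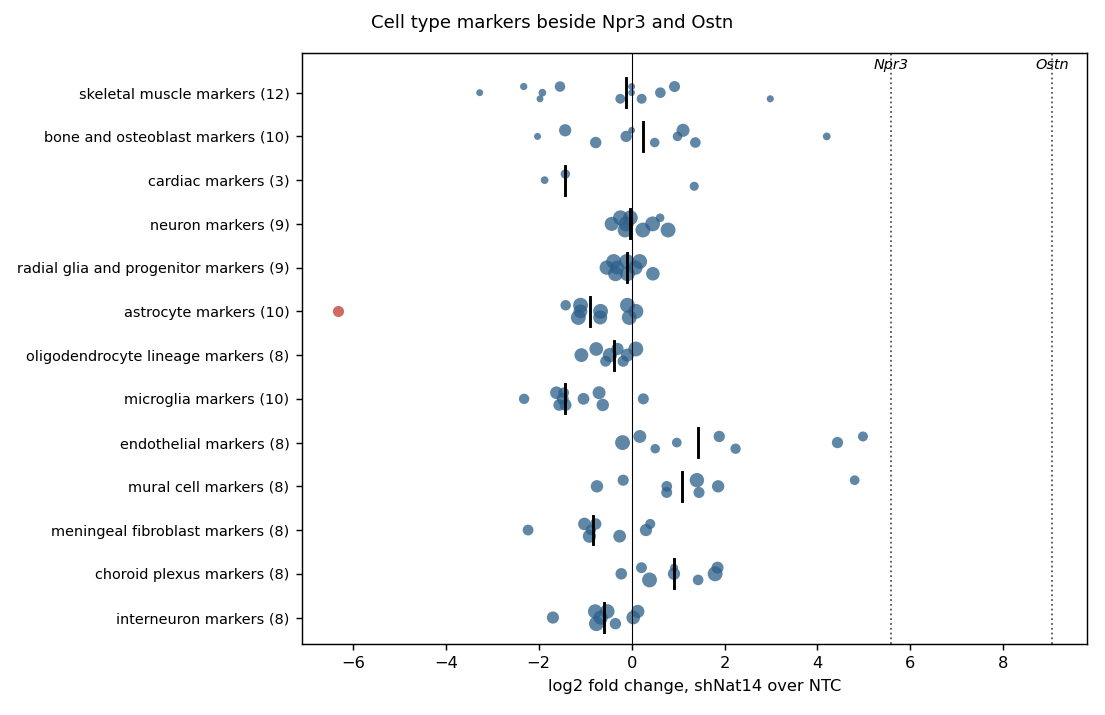
Log2 fold change of shNat14 over NTC for markers of cell types, from the authors' deposited table, drawn as points per gene above the lowest level (larger for a higher mean level, red where called) with black bars for list medians. Dotted lines mark Npr3 at 5.58 and Ostn at 9.04. Endothelial markers run from -0.20 to 4.98 and mural markers from -0.75 to 4.80. Muscle markers run from -3.27 to 2.98 and bone markers from -2.03 to 4.20.

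Among all rows, those most like Ostn were sought by distance in the plane of log2 fold change and mean log2 CPM, a likeness that rests on this 1 comparison. The nearest were Stfa1, a stefin, at a distance of 1.29 log2 units, Ccr3, a chemokine receptor, at 1.88, Fcer1a, a subunit of the IgE receptor, at 1.92, Rnaset2b, a ribonuclease, at 2.01, and Fmo2, a monooxygenase, at 2.20. They had log2 fold changes of 7.97, 7.76, 7.74, 7.66 and 7.51 in that order by the authors' deposited table. None was called, with unadjusted p-values from 0.000268 to 0.0112 by the authors' deposited table, all larger than that of Ostn.

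The genes beside Ostn on its chromosome were compared with it by their order in a RefSeq annotation (GRCm38.p6), which was used for order alone. Of 5 protein-coding genes on each side, 0 were called and 1 had an unadjusted p under 0.05. The nearest genes were Gmnc, listed as Gm606, at a log2 fold change of -0.59, and Uts2b, listed as Uts2d, at the lowest level with a fold change of 0 by the authors' deposited table. Tmem207, the third gene on one side, stood at 6.52 at a log2 CPM of -1.35 by the authors' deposited table (p = 0.00574, adjusted p = 0.506). The neighbours above the median level, Il1rap, Ccdc50, Fgf12 and Mb21d2 (listed as 1600021P15Rik), had log2 fold changes of 0.0017, 0.25, 0.29 and -0.0070 by the authors' deposited table. Beside Npr3, 0 of 10 neighbours were called and 2 had an unadjusted p under 0.05, and their log2 fold changes ran from -0.70 to 0.75 by the authors' deposited table.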

How the data were processed

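RNA sequencing libraries of sorted cortical cells, 3 shNat14 and 3 NTC, grouped by sample title, were compared by the authors. Per the file headers, each gene of the deposited table has its log2 fold change, its mean log2 CPM, its p-value and its false discovery rate, called the adjusted p here. These log2 values and p-values were used as deposited. Per the submitters' processing notes the tools were DESeq, HTSeq 0.5.4p1, SAMtools 0.1.19 and TopHat2 2.0.8, and the build was hg19. That build is human although symbols and samples are mouse, so no coordinates are given. The table's columns are not those that DESeq writes, so the test behind the deposited fold changes and p-values is not known here. For normalization, filters and strand use the sources used here give nothing, and depth per library is unknown.

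No test was run across libraries. Calls used the authors' adjusted p under 0.05 over all genes, which matched a Benjamini-Hochberg adjustment of the deposited p-values to within 4.1e-05. That adjustment function was tested on simulated data and was used for the alternatives, which were other thresholds, Bonferroni correction, level filters, a fold minimum and re-centring. Members and gene lists were chosen with earlier results of these data known. Of 214 list entries in 26 lists, 1 had no row, 4 were found under an older symbol and 209 under the symbol itself. Named genes are the 9 members, Nat14, and in each pathway list the called gene, the one with the smallest p and the most abundant one, together with the rows nearest to Ostn and the genes beside it. In marker lists genes chosen in the same way could be named, and only some are. Corin, Sp7, Ibsp, Dmp1, Myog, Cldn5, Pdgfrb, Cspg4, Xist and Tsix were named after their values were seen. So were the genes of the mast cell and basophil list, Prkg2 as a match in level, and the neighbours singled out. Exon lengths, overlaps, runs of 50 bases on either strand and coding ends came from GENCODE M21. Of the members, 7 of 9 were in the RefSeq promoter table and none of those sequences is printed. Computations used Python 3.11.15, numpy 2.4.6 and pandas 2.3.3.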

Additional observations from a re-analysis of the deposited data

How the results depend on the processing

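Ostn kept its direction and its side of the threshold under each alternative that could be applied to it, an outcome fixed in advance. Its log2 fold change was 9.01 and 9.04 after re-centring on the median of well-measured rows and of rows above the lowest level. Those medians were only 0.032 and 0.0033. Its adjusted p was 2.09e-07 after Bonferroni correction and 3.32e-08 when adjusted over rows above the lowest level. Since Ostn was selected on its fold change and adjusted p, nothing is read from its keeping the call. The number of called members was 0 when rows below the median level were left out, because Ostn lies below it, and 1 under the other alternatives. Gucy2f was the called pathway gene, and the count was 0 at an adjusted p under 0.01, 0 after Bonferroni correction and 0 over rows at or above the median level. Over all genes the count of 34 calls became 19 at an adjusted p under 0.01, 55 under 0.10, 17 after Bonferroni correction and 16 over rows at or above the median level. Re-centring on well-measured rows was a shift of 0.032 and could reverse no sign among the 8 members above the lowest level. The smallest absolute log2 fold change among them was 0.48. Nppb, at 0, was not re-centred. No paired analysis was possible because libraries have no values of their own in the deposited comparison, and for the same reason leaving out each library was not run. Members near the lowest level, Npr1 and Nppb above all, carry little information at this depth, which is itself unknown.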

Other observations

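Of the 5 rows nearest to Ostn in fold change and level, Ccr3 and Fcer1a are genes of mast cells, basophils and eosinophils, so a list of 15 mast cell and basophil genes was drawn up after those values were seen. Of these, 14 in the authors' deposited table were above the lowest level, 13 of them with a positive fold change, and the median was 1.52 on the log2 scale. Of the list 0 were called and 2 had an unadjusted p under 0.05, the same Ccr3 and Fcer1a. Since these genes prompted the list and are counted in it, nothing is read from its counts or its median. The most abundant was Cpa3, mast cell carboxypeptidase, at a log2 fold change of 3.11 and 32.3 CPM by the authors' deposited table (p = 0.117). Cma1, a chymase, stood at 2.68 at 6.23 CPM by the authors' deposited table (p = 0.0934). Kit, a receptor that mast cells share with other cells of the brain, stood at 0.09 (p = 0.839), and Ms4a2, a defining subunit of the IgE receptor, was at the lowest level by the authors' deposited table. Whether these cells bear on the value of Ostn was not tested.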
